A study of Solanum tuberosum with 12 samples.

Results

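The miRNAs described here are PotatoMir1003753189, a miR399 sequence, PotatoMir1004453921, which lies on the other arm of miR399-like hairpins, and PotatoMir1005683537, a miR827 sequence. They were taken by name from the list of predicted miRNAs that was deposited for potato, and they occupy 15 of the 324 predicted loci of the list. PotatoMir1003753189 has 6 loci, PotatoMir1004453921 has 8 loci and PotatoMir1005683537 has 1 locus. Small RNAs had been sequenced from 12 libraries of *Solanum tuberosum* group *Andigena* clone ADG573, which were made from leaf under long days, leaf under short days, stolon under short days and swollen stolon under short days, with 3 biological replicates each. All plants came from in vitro cuttings of this single clone, grew for 4 weeks under long days in a glasshouse and were then moved to cabinets at 20 °C, and the labels give 8 days in the cabinet for every group. The study's methods give later days for stolon. No phosphate treatment is named in the labels. The list gives each miRNA a number of reads over all libraries together, so the depth of a library and the difference between tissues or day lengths were not analysed here, and no value below has an error between replicates.

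Plant miRNAs are cut by Dicer-like 1 from a hairpin as a duplex of strands from the 5′ and the 3′ arm. One strand, the mature miRNA, is kept by an Argonaute protein and guides it to complementary transcripts, and the other is called the star strand. miR399 and miR827 are known from other plants as miRNAs that accumulate when phosphate is short. In *Arabidopsis thaliana* miR399 moves from shoot to root in the phloem and represses PHO2, a ubiquitin-conjugating enzyme that limits phosphate uptake and transport to the shoot. miR827 represses NLA, a ubiquitin ligase with an SPX domain, in *A. thaliana*, and membrane transporters with an SPX domain in rice.

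The mature sequences are shown because arms and targets are compared below. Capitals mark bases 2 to 8, the seed of a miRNA, and the other miR399 sequence of the list, PotatoMir1005480829, is added for comparison.
PotatoMir1003753189: cGCCAAAGgagagctgccctg
PotatoMir1005480829: tGCCAAAGgagagttgcccta
PotatoMir1004453921: gGGCTACTctctattggcatg
PotatoMir1005683537: tTAGATGAacatcaacaaaca

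All were 21 nt in length. The 2 miR399 sequences were the only distinct mature sequences of the list with the seed GCCAAAG, and the seeds of PotatoMir1004453921 and PotatoMir1005683537 were each found in no other mature sequence at bases 2 to 8. PotatoMir1003753189 starts with C, like 8 of the 59 distinct 21 nt sequences of the list, whereas PotatoMir1005480829 and PotatoMir1005683537 start with T, like 34 of the 59. PotatoMir1004453921 starts with G, like 3 of the 59. In *A. thaliana*, AGO1 is known to prefer small RNAs with a 5′ U. The GC content was 66.7% for PotatoMir1003753189, 52.4% for PotatoMir1004453921 and 28.6% for PotatoMir1005683537.

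RefSeq names were available for all of these loci. The annotation of the potato assembly SolTub_3.0 holds 15 MIR399 genes and 1 MIR827 gene, and each was matched to a precursor of the list with the same length and both ends within 2 bases. Superscaffold, strand and sequence were not compared in this match. The 8 loci of PotatoMir1004453921 are thus MIR399A to MIR399H in RefSeq, the 6 loci of PotatoMir1003753189 are MIR399J to MIR399O, and the locus of PotatoMir1005480829 is MIR399I. These symbols are used below.

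The read numbers of the phosphate miRNAs were low. PotatoMir1005683537 (miR827) had 72 reads over all libraries (95% Poisson interval 56.3 to 90.7), PotatoMir1003753189 (miR399) had 36 reads (25.2 to 49.8) and PotatoMir1004453921 had 22 reads (13.8 to 33.3). The other miR399 sequence, PotatoMir1005480829, had 8 reads (3.45 to 15.8). Counted once for each distinct sequence, the interval of miR827 lay above those of the other 3, while those of PotatoMir1003753189 and PotatoMir1004453921 overlapped. Of the 58 reads of these 2 strands, 36 (62.1%, exact 95% binomial interval 48.4 to 74.5%) were PotatoMir1003753189, so an equal number of reads lay within the counting error. The libraries carried no molecular identifiers, so these intervals describe the counting error of reads and not the error between molecules or plants.

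Among the 222 distinct mature sequences of the list, miR827 ranked 62nd by reads, PotatoMir1003753189 ranked 84th together with 1 other sequence, and PotatoMir1004453921 ranked 106th. All 3 lay above the median of the list, which was 17.5 reads. The list includes sequences below the minimum of 5 reads in the study's methods. Among the 171 sequences with at least 5 reads the ranks were the same. PotatoMir1003753189 was then near the middle, and PotatoMir1004453921 lay below it. Sequences of the same length as the 3 miRNAs had more reads. Among the 59 distinct sequences of 21 nt, whose median was 67 reads, miR827 was 29th, PotatoMir1003753189 was 36th and PotatoMir1004453921 was 42nd. Of these, miR827 remained above the median and the other 2 lay below it. Some sequences of 21 nt have fewer than 5 reads, and without them miR827 would lie below the median as well. The 130 reads of the 3 miRNAs made up 0.0136% of the list, in which the distinct sequences sum to 954147 reads. Most of that sum, 741106 reads, belonged to a single other sequence, PotatoMir1005257311.

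**Figure D1:**
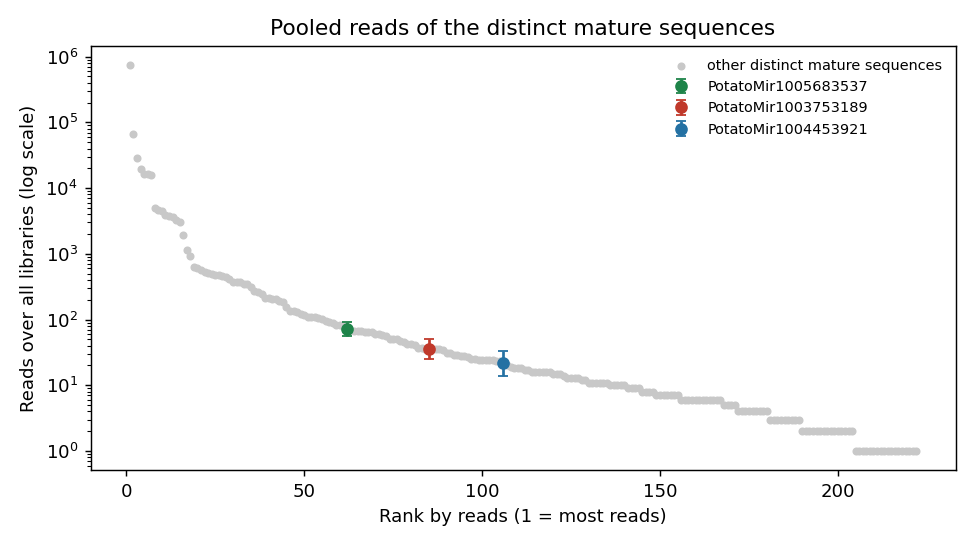
Reads over all libraries (log scale) of the 222 distinct mature sequences, in order of rank, with the 3 miR399 and miR827 sequences in colour and their 95% Poisson intervals as bars. miR827 with 72 reads stands above PotatoMir1003753189 with 36 and PotatoMir1004453921 with 22, and the bars of the last 2 overlap.

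A read of a repeated sequence cannot be given to a single locus. The loci are those of the DM genome, from a doubled monoploid potato of group Phureja, and not of the sequenced clone ADG573. The number of copies in ADG573 is not known here. PotatoMir1003753189 was found in 6 precursors of the list, all of them its own loci. PotatoMir1004453921 was found in 13 precursors, its 8 loci and 5 of the 6 loci of PotatoMir1003753189, where it is the strand on the other arm. Divided evenly, there were 6 reads for each precursor with PotatoMir1003753189 and 1.69 reads for each precursor with PotatoMir1004453921, against 72 for the precursor of miR827. Counted again at each listed locus, the order turned, with 216 reads for PotatoMir1003753189, 176 for PotatoMir1004453921 and 72 for miR827. Other sequences with many loci covered a wide range of reads. The list holds 7 sequences with 6 or more loci, and beside the 2 described here their read numbers ran from 10 for PotatoMir1002964519 to 4484 for PotatoMir1004934921.

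The miR399 loci form an array in the DM genome, and whether the sequenced clone has the same copies was not examined. All 6 loci of PotatoMir1003753189 and 7 of the 8 loci of PotatoMir1004453921 lie on superscaffold PGSC0003DMB000000154 of the DM potato genome, from 1312545 to 1373279, which is a span of 60.7 kb. The release of the superscaffolds is not given in the sources used here, and no gene annotation of this build was used. No other predicted miRNA lies inside the span, and the only other locus on this superscaffold is 1140 kb away. No precursors overlap, and together their 847 bases make up 1.39% of the span.

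The gaps between neighbouring precursors ran from 2.14 kb to 15.48 kb, with a median of 3.74 kb over 12 gaps. Only 4 of them were above 5 kb. The widest was the last, 15.48 kb between MIR399E and MIR399J, and the next was the first, 9.25 kb between MIR399G and MIR399A. The first and the last hairpin thus stood apart from 11 hairpins in the middle, whose gaps were between 2.14 and 6.31 kb.

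The hairpins lay on both strands, 5 on the plus strand and 8 on the minus strand. In the order along the superscaffold the strand changed at 10 of 12 steps. There were 5 divergent and 5 convergent neighbours, and the only steps without a change were from MIR399N to MIR399L and from MIR399L to MIR399M. Divergent gaps were 9.25, 3.36, 2.29, 2.14 and 2.17 kb, and convergent gaps were 5.03, 2.55, 2.82, 4.36 and 15.48 kb. These ranges overlap.

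All 5 plus-strand hairpins of the array are listed with PotatoMir1004453921 as the mature sequence. On the minus strand 6 hairpins are listed with PotatoMir1003753189, and 2, MIR399F and MIR399G, with PotatoMir1004453921. The latter sequence is therefore not a product of the other genomic strand. It lies at the 5′ end of the precursor at all 8 of its loci, on either genomic strand, while PotatoMir1003753189 lies at the 3′ end at all 6 of its loci.

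**Figure D2:**
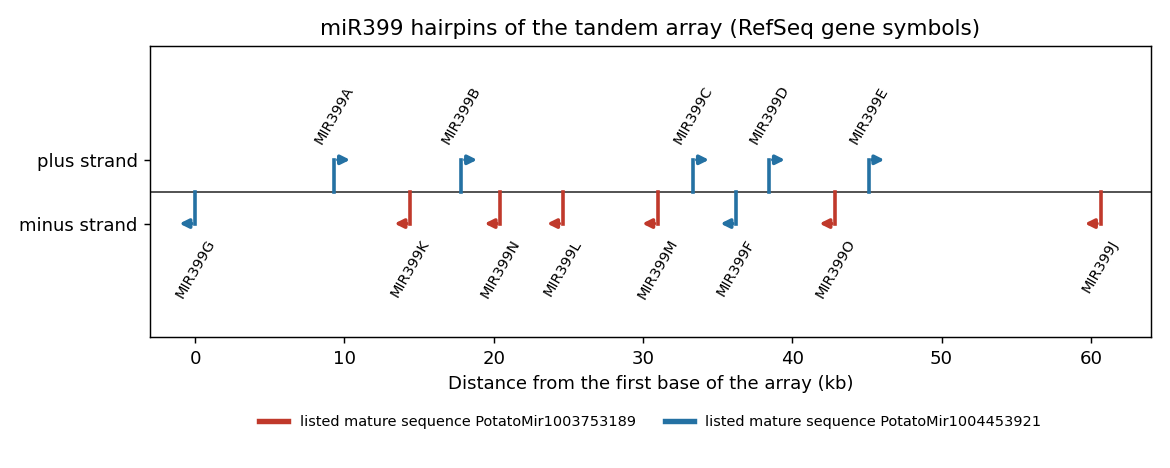
Positions of the 13 miR399 hairpins in kb from the first base of the array, with plus-strand hairpins above the line, minus-strand hairpins below it, and arrows in the direction of the strand. Colours give the listed mature sequence. The strand changes at 10 of the 12 steps, and all hairpins with PotatoMir1003753189 are below the line.

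Other groups of loci in the list were smaller. When loci within 20 kb of each other were joined, 10 groups of at least 3 loci were found. The miR399 array held 13 loci, and the others held 3 loci in 7 cases and 4 loci in 2 cases, with a span of at most 18.3 kb. Both strands were present in 4 of the 10 groups. PotatoMir1003902287 (miR395), with 12 loci the most repeated sequence of the list, was spread over 5 superscaffolds. These are descriptions of the list, and no test was made of the difference.

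The plus-strand precursors of the array are shown with the mature sequence in capitals, because the bases between the arms tell the copies apart.
MIR399A, plus strand, from 1321861 to 1321924: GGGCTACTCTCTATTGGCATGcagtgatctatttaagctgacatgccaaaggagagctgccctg
MIR399B, plus strand, from 1330374 to 1330437: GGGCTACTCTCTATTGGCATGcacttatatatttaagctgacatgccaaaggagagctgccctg
MIR399C, plus strand, from 1345908 to 1345971, and MIR399D, plus strand, from 1350998 to 1351061: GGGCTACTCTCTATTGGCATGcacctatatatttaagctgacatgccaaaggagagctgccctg
MIR399E, plus strand, from 1357659 to 1357722: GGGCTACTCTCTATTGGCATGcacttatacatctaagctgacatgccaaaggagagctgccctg

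The minus-strand precursors of the array are written in the same way, 5′ to 3′ on their own strand. In the first 4 lines below the capitals are PotatoMir1003753189, and in the last 2 they are PotatoMir1004453921.
MIR399K, minus strand, from 1326951 to 1327014, and MIR399O, minus strand, from 1355423 to 1355486: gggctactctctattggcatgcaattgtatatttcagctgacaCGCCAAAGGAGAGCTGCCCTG
MIR399L, minus strand, from 1337174 to 1337237, and MIR399M, minus strand, from 1343551 to 1343614: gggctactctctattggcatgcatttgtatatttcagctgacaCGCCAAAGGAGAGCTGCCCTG
MIR399N, minus strand, from 1332988 to 1333051: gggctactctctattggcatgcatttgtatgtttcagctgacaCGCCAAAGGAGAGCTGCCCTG
MIR399J, minus strand, from 1373205 to 1373279: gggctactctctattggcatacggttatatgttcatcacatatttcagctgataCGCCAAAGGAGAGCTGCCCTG
MIR399F, minus strand, from 1348792 to 1348855: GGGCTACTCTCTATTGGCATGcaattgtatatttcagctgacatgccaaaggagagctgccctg
MIR399G, minus strand, from 1312545 to 1312612: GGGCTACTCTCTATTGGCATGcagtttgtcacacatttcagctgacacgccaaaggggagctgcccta

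The array holds 10 distinct precursors at 13 loci. The identical copies were MIR399C and MIR399D, whose starts are 5.1 kb apart, MIR399L and MIR399M, 6.4 kb apart, and MIR399K and MIR399O, 28.5 kb apart. A precursor of 64 nt, with 2 arms of 21 nt and 22 nt between them, was found at 11 loci, all but MIR399G with 68 nt and MIR399J with 75 nt, which are the first and the last of the array. Over the 11 precursors of 64 nt, counted from 1 at their 5′ end, 10 positions varied. None of these was on the 5′ arm, 9 were in the loop, and 1 was on the 3′ arm.

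Copies on the same strand were more alike than copies on opposite strands. Among the 5 plus-strand precursors, pairs differed at 0 to 5 bases (median 3, 10 pairs). Among the 6 minus-strand precursors of 64 nt they differed at 0 to 3 bases (median 1, 15 pairs), and between the strands at 3 to 7 bases (median 5, 30 pairs). With MIR399G and MIR399J, in which gap bases count as differences, the median was 2.5 within the minus strand (28 pairs, up to 15 bases) and 6 between the strands (40 pairs, up to 17 bases). The precursors of an array share descent and are not independent, so no test was made.

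Precisely 3 positions separated the strands among the 64 nt precursors. These were position 24 (C or G on the plus strand, A or T on the minus strand), position 27 (A on the plus strand, G on the minus strand) and position 35 (A on the plus strand, C on the minus strand). All lie in the loop. For each of the 13 hairpins, the most similar other hairpins of the array lay on the same strand. A direct neighbour in the array was among the most similar at only 3 hairpins, MIR399N, MIR399L and MIR399M, which are the neighbours on the same strand.

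**Figure D3:**
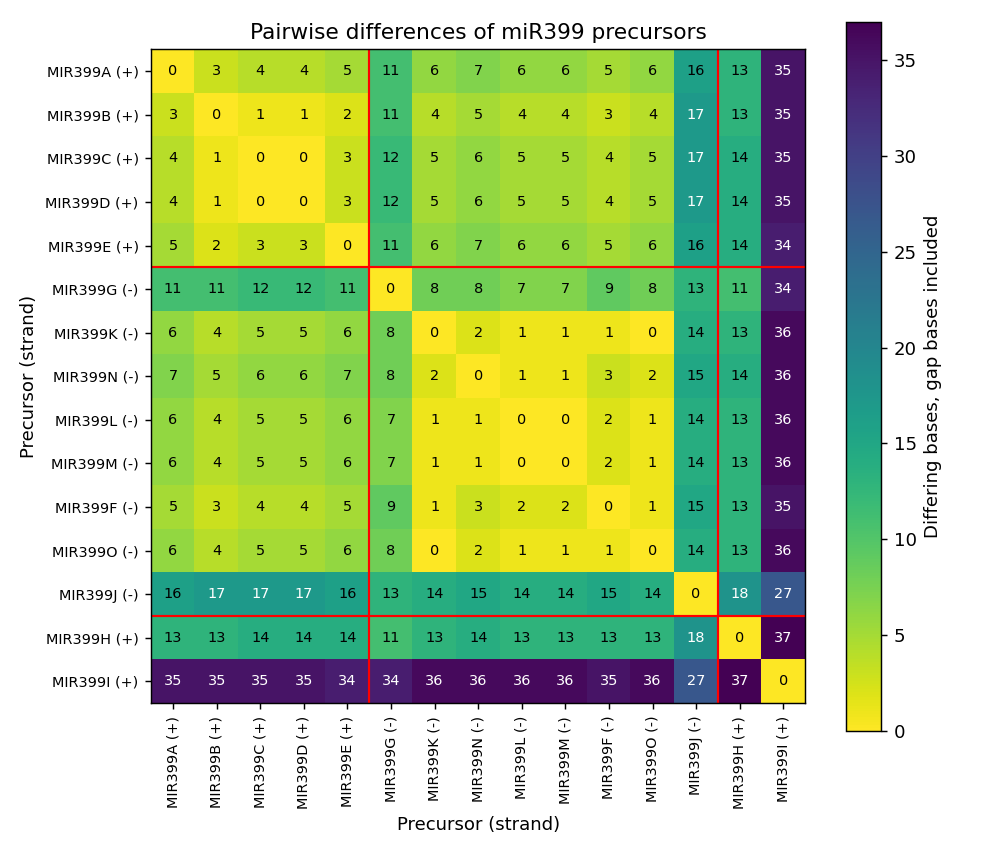
Number of differing bases between miR399 precursors, gap bases included, with the plus-strand and the minus-strand hairpins of the array, MIR399H and MIR399I divided by red lines. Pairs of 64 nt precursors within a strand differ at up to 5 bases and between strands at 3 to 7 bases, whereas MIR399G, MIR399J, MIR399H and MIR399I stand apart.

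A single base separated hairpins listed with different mature arms. MIR399F differed from MIR399K and from MIR399O only by C44T (MIR399K and MIR399O have C at position 44 of the precursor, and MIR399F has T). Position 44 is the first base of the strand on the 3′ arm. With C at this position the 3′ strand is PotatoMir1003753189, and it is listed as mature. With T the 3′ strand is not a mature sequence at any locus of the list, and PotatoMir1004453921 on the 5′ arm is listed instead. The same T is found on all 5 plus-strand hairpins, while the loop of MIR399F is identical to that of MIR399K and MIR399O.

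Over the 14 miR399-like loci of both sequences there were 2 forms of the 5′ strand and 4 forms of the 3′ strand. The 5′ strand was PotatoMir1004453921 at 13 loci, and MIR399J differed from it by G21A, counted from the 5′ end of the strand. The 3′ strand was PotatoMir1003753189 at 6 loci and its C1T form at 6 loci, MIR399A to MIR399F. The 3′ strand of MIR399G differed from PotatoMir1003753189 at 2 bases and that of MIR399H at 6 bases. MIR399H and MIR399I are shown as the hairpins outside the array, on the plus strand of superscaffolds PGSC0003DMB000000437 and PGSC0003DMB000000981.
MIR399H, plus strand, from 24638 to 24704: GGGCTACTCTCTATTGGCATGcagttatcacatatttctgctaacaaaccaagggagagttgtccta
MIR399I, plus strand, from 10331 to 10424: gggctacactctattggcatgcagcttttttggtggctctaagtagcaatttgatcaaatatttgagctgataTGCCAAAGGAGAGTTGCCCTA

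MIR399H differed from the hairpins of the array at 11 to 18 bases (median 13) and was nearest to MIR399G. It was the only MIR399 locus of the list whose 3′ strand lacked the seed GCCAAAG. PotatoMir1004453921 is listed there as mature, although its sequence is present in full at 13 precursors and a read cannot be given to any of them. MIR399I, with a loop of 52 nt, differed from the array at 27 to 36 bases, and at 4 to 8 bases when gap bases were left out. Its 5′ strand differed from PotatoMir1004453921 by T8A, and its 3′ strand differed from PotatoMir1003753189 at 3 bases.

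In the fold at 37 °C, the duplex of every locus had 21 nt on both strands and no asymmetric bulge. The authors had selected the loci from their folds, so this is a description. Duplexes without an asymmetric bulge were found at 76 of the 100 loci of the list with 21 nt miRNAs. The miR399 duplexes shared a pattern of pairing, though many of them are copies with identical strands and are not independent. On the 3′ strand, base 7 was unpaired and base 8 formed a G:U pair at all 14 loci. Base 15 was also unpaired at all 14 loci and base 14 at 13 loci, with MIR399H as the exception.

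The miR399-like duplexes differed mainly at the first base of the 3′ strand, while MIR399G and MIR399H also differed from the rest at other bases. This first base was paired at 6 loci, MIR399A to MIR399F, where it is T and faces A of the 5′ strand. It was unpaired at the other 8 loci. At the 6 loci of PotatoMir1003753189 the mature strand therefore began with a mismatch, and 3 of its first 4 bases were paired, against 4 of the first 4 bases of the star strand. At MIR399A to MIR399F the first 4 bases of both strands were paired. MIR399G and MIR399H went the other way. There all of the first 4 bases of the listed 5′ strand were paired, against 3 and 2 of the star strand. A strand whose 5′ end is less firmly paired is known to be favoured for loading into Argonaute. Whether this bears on the listed arm was not tested.

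**Figure D4:**
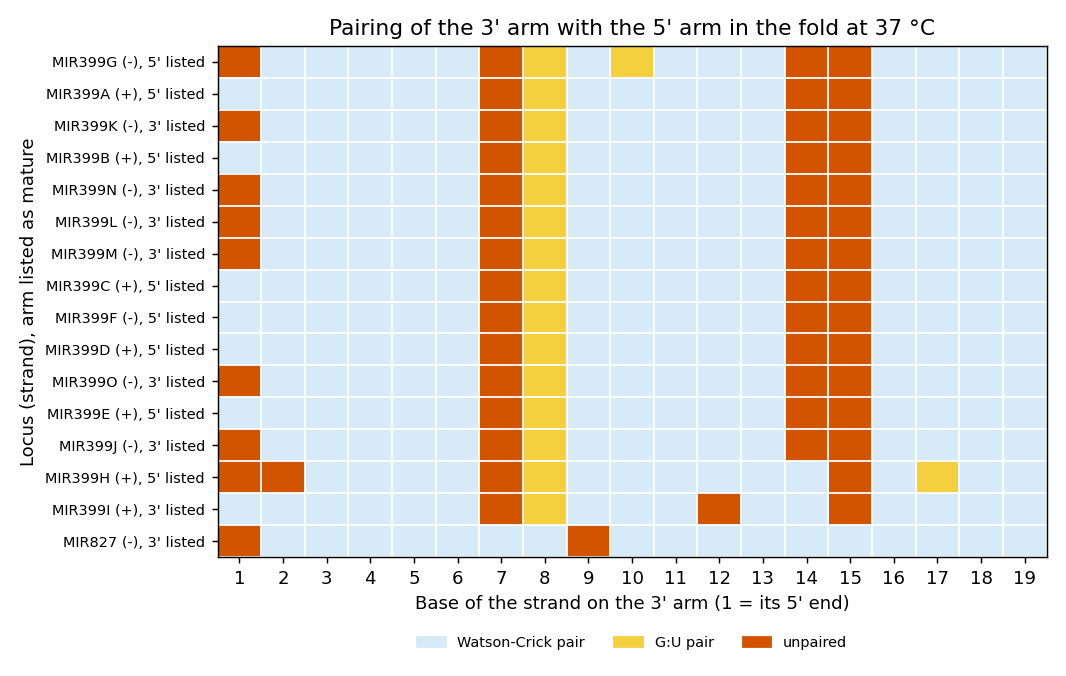
State of bases 1 to 19 of the strand on the 3′ arm at the 14 miR399-like loci, MIR399I and MIR827, with a Watson-Crick pair in light blue, a G:U pair in yellow and an unpaired base in orange. Base 1 is paired at MIR399A to MIR399F and MIR399I, and bases 7 and 15 are unpaired at every miR399 locus.

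Among the precursors of 64 nt, the energies of the folds differed with the first base of the 3′ strand. The 5 precursors of 64 nt with C in first place on the 3′ strand had the same minimum free energy, -28.80 kcal/mol. The 6 with T had energies between -35.70 and -31.80 kcal/mol, so that the groups did not overlap. Strand and loop also differed, since 5 of the 6 with T are on the plus strand and all 5 with C are on the minus strand. MIR399B and MIR399C, which differ by T25C in the loop only, had -35.30 and -31.80 kcal/mol. For MIR399F and MIR399K, which differ by C44T only, the energies were -33.20 and -28.80 kcal/mol, a difference of -4.40 kcal/mol at 37 °C and of -4.93 kcal/mol at 20 °C. MIR399H had the highest energy of all 15 loci, -23.40 kcal/mol. MIR399J and MIR399G, which are longer than 64 nt and also have C in first place, had -32.90 and -30.50 kcal/mol.

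The miR399 precursors of the array were short for 21 nt miRNAs. Among the 100 loci with 21 nt miRNAs, 12 had a precursor of 64 nt or less, and 11 of these were hairpins of the array, which hold 8 distinct precursors. Such lengths were less rare in the whole list, where 65 of 324 loci had a precursor of 64 nt or less. The median precursor was 79.5 nt at these 100 loci and 85 nt in the whole list. The median minimum free energy of the 15 loci was -30.50 kcal/mol, against -36.10 kcal/mol over all 324 loci. Per nucleotide the medians were -0.450 and -0.430 kcal/mol. Energies also varied at a single length, since the 11 hairpins of 64 nt ran from -35.70 to -28.80 kcal/mol.

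**Figure D5:**
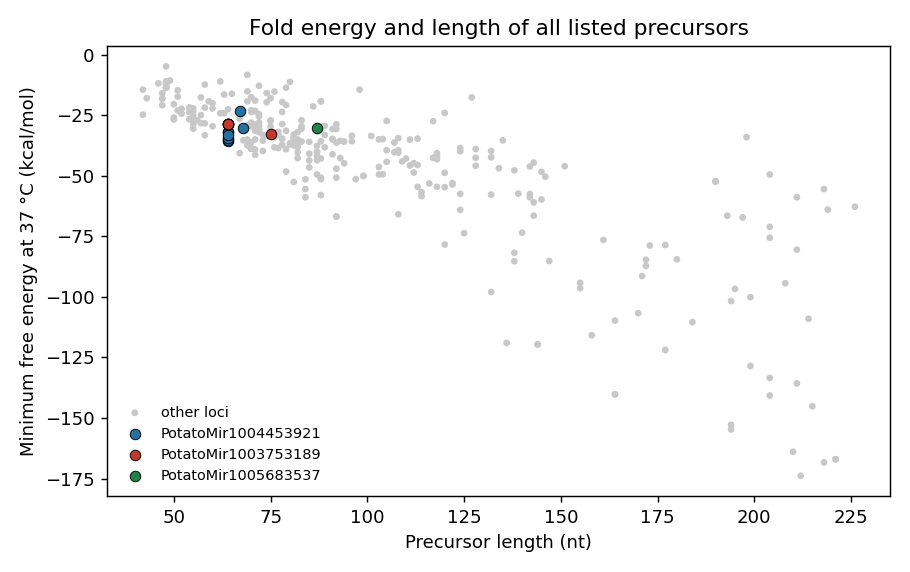
Minimum free energy at 37 °C (kcal/mol) against precursor length (nt) for all 324 loci, with the 15 miR399 and miR827 loci in colour. The 11 hairpins of 64 nt lie between -35.70 and -28.80 kcal/mol, and the miR827 precursor of 87 nt lies at -30.20 kcal/mol.

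miR827 differed from miR399 in its genomic setting. PotatoMir1005683537 had 1 locus, on the minus strand of superscaffold PGSC0003DMB000000034, where no other predicted miRNA was listed. Its precursor is shown with the mature sequence in capitals.
MIR827, minus strand, from 454122 to 454208: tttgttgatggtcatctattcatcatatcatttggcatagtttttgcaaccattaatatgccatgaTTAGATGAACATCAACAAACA

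The precursor of miR827 was 87 nt long with 45 nt between the strands. Its GC content was 31%, compared with 43.3 to 52.9% for the miR399-like loci of the 2 other sequences. The mature strand lay on the 3′ arm, as in miR399. Its duplex had 17 Watson-Crick pairs, no G:U pair and 2 unpaired bases, base 1 and base 9 of the mature strand. Like PotatoMir1003753189, miR827 began with an unpaired base, opposite a star strand whose first 4 bases were all paired. The minimum free energy was -30.20 kcal/mol, or -0.347 kcal/mol per nucleotide, the value closest to 0 of all 15 loci.

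Target sites were taken as sequences from the study's table of predicted targets and paired again. Sites are written 5′ to 3′ in lower case, with capitals for bases that do not form a Watson-Crick pair, and positions are counted from the 5′ end of the miRNA. A mismatch counts 1 and a G:U pair 0.5. The first site, on transcript PGSC0003DMT400076435, is annotated as PHO2, the repressed target of miR399 in *A. thaliana*, and is listed there for PotatoMir1005480829. It is shown against 3 forms of the 3′ strand.
PHO2 site with PotatoMir1005480829: uagggcaaAucuccuuuggca
PHO2 site with the 3′ strand of MIR399A to MIR399F: UagggcaAAucuccuuuggca
PHO2 site with PotatoMir1003753189: UagggcaAAucuccuuuggcA

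PotatoMir1005480829, with 8 reads, formed 20 Watson-Crick pairs with this site and had a mismatch at base 13, for a sum of 1. The 3′ strand of MIR399A to MIR399F formed 18 pairs, with mismatches at bases 13 and 14 and a G:U pair at base 21, for a sum of 2.5. PotatoMir1003753189, with 36 reads, had a further mismatch at base 1, where its C faces A, and a sum of 3.5. The 3′ strands of MIR399G and MIR399H had sums of 3.5 and 4. Of the 2 listed miR399 sequences, the one with more reads and loci was therefore not the closer complement of the PHO2 site. The 3′ strand of MIR399A to MIR399F is not a listed mature sequence, so the list gives no reads for it. The site was chosen in the study for its pairing with PotatoMir1005480829, so this order is a description. Base 13 faced a mismatch in each of the 5 forms, whereas bases 3 to 6 were paired in each of them.

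For miR827, both sites that the table annotates as SPX domain-containing membrane proteins are shown, chosen by this annotation. Their sums over the whole site were the lowest among those paired here with the 3 miRNAs. The comparison is uneven, because the other miRNAs were paired only with their first listed site and, for PotatoMir1003753189, the PHO2 site. In addition, the site of PotatoMir1004453921 has 20 bases and the others have 21, so the last base of this miRNA was not scored.
SPX site on PGSC0003DMT400032620: uguuuguugauguucaGcuaa
SPX site on PGSC0003DMT400058568: uguuuguugaugCuUaucuaa

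PotatoMir1005683537 formed 20 Watson-Crick pairs with the first site, with a mismatch at base 5 and a sum of 1. With the second it formed 19 pairs, with a mismatch at base 9 and a G:U pair at base 7, for a sum of 1.5. The first site listed for PotatoMir1003753189 itself, on PGSC0003DMT400039282, a conserved gene of unknown function, had 3 mismatches and 2 G:U pairs, for a sum of 4. The first site listed for PotatoMir1004453921, on PGSC0003DMT400061547, annotated as the biotin carboxyl carrier protein of acetyl-CoA carboxylase, an enzyme of fatty acid synthesis, had 2 mismatches and 2 G:U pairs, for a sum of 3. Over the first 17 bases of the miRNA these sums were 2 and 1.5, and the latter equalled that of the second SPX site. Neither transcript is annotated with a role in phosphate supply in the table. The sites were not tested for cleavage.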

How the data were processed

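The 12 small RNA libraries of clone ADG573 were prepared with the Illumina TruSeq small RNA kit. The authors trimmed the reads with Cutadapt (version 1.1 in the submitters' processing notes, other versions not given in the sources used here), removed other RNA classes with cross_match, aligned the reads with Bowtie without mismatches to the DM superscaffolds, left out sequences with too many positions, folded the flanking sequence with RNAfold and predicted miRNAs with miRDeep-P. The deposited list gives each locus its position, its mature and precursor sequence, and a count, the number of identical reads over all libraries, which the authors wrote into the identifier without normalization. Of its 222 distinct sequences 171 had at least 5 reads, so the read minimum of the methods was not applied to this list.

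The members and lists were chosen with earlier results of these data known. Named sequences are the 3 members, the other sequence with the miR399 seed, loci inside the array, and target sites annotated as PHO2 or SPX or listed first for a member. RefSeq symbols (SolTub_3.0) were matched by length and position within 2 bases. The shift was 1 base on the plus strand and 2 bases on the minus strand, so a gap between opposite strands could be off by 3 bases. Precursors were folded with ViennaRNA 2.7.2 at 37 °C, and the star strand was cut to leave a 3′ overhang of 2 nt. A duplex met the criteria with up to 4 mismatched bases and up to 1 asymmetric bulge, of 2 nt or less. Differences were counted in global alignments (Biopython 1.88, match 1, mismatch -1, gap opening -2, gap extension -1). Loci were joined within 20 kb. Intervals are 95% and were computed with SciPy 1.17.1. On simulated hairpins with up to 2 mismatches, none of them at an end, and without G:U pairs, the star strand was recovered in 199 of 200 cases. The miR399 duplexes have more unpaired bases and a G:U pair, a case that the simulation did not cover. Alternatives changed the fold temperature, G:U pairs, join distance, alignment (MAFFT 7.526), read unit and scored bases. No sample entered a test, since values of single libraries were not analysed here.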

Additional observations from a re-analysis of the deposited data

How the results depend on the processing

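All 15 loci met the duplex criteria at 37 °C and at 20 °C, and 7, MIR399A to MIR399F and MIR827, did so when G:U pairs counted as mismatches, since the others have 4 unpaired bases beside their G:U pairs. The median energy of -30.50 kcal/mol became -42.28 kcal/mol at 20 °C and -0.450 kcal/mol per nucleotide. The array held 13 loci when joined within 20 or 50 kb and 12 loci within 10 kb, without MIR399J. Its median spacing was 3.80 kb from start to start. The medians of differing bases within the plus strand, within the minus strand and between the strands were 3, 2.5 and 5.5 without gap bases, 3, 2 and 5 in the loop, and 3, 2.5 and 6 with MAFFT. Summed over loci, the 130 reads became 464 (216, 176 and 72 for PotatoMir1003753189, PotatoMir1004453921 and PotatoMir1005683537), so that miR827 had the lowest number instead of the highest. Divided over the precursors that hold the sequence, the 36 reads of PotatoMir1003753189 became 6 and the 22 reads of PotatoMir1004453921 became 1.69. Ranks could not move among sequences with at least 5 reads, since all 3 miRNAs have more than that. Only 171 sequences remain there, however, so PotatoMir1004453921 at rank 106 lay below the middle instead of above it. Among 21 nt sequences the ranks were 36, 42 and 29 for PotatoMir1003753189, PotatoMir1004453921 and PotatoMir1005683537. With 21 nt sequences below 5 reads left out, miR827 would lie below their median instead of above it. Over the first 17 bases the sums of the sites on PGSC0003DMT400039282, PGSC0003DMT400061547 and PHO2 went from 4, 3 and 3.5 to 2, 1.5 and 3, and those of both SPX sites stayed at 1 and 1.5. With G:U pairs as mismatches they were 5, 4, 4, 1 and 2. No paired analysis was possible because the list holds no values of single libraries. The few reads limit what the order of the miRNAs can show, and differences between tissues or day lengths were not analysed here.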

Other observations

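The miR399 seed GCCAAAG was found in 16 of the 324 precursors of the list (4.94%), on the strand as deposited. Of these, 13 were the array and 1 was MIR399I, and MIR399H lacked it. The other precursors were those of PotatoMir1005745161 (24 nt, 7 reads) and PotatoMir1005943737 (20 nt, 345 reads), in which the letters lie outside the mature sequence. The miR827 seed TAGATGA was found in 3 precursors (0.926%), MIR827 and those of PotatoMir1000648097 (24 nt, 6 reads) and PotatoMir1001141891 (20 nt, 1 read). In the last it lies inside the mature sequence, though not at bases 2 to 8. These matches are descriptions of the letters only.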
